A study of Mus musculus with 2 samples.

Results

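The 37 laminin and integrin chain genes of the mouse were measured on day 6 of cardiomyocyte differentiation, in control and Zbtb16 knockout cells. They were taken by gene symbol, as all laminin alpha, beta and gamma chains and all integrin alpha and beta chains listed in the matrices. This gene family was chosen with earlier results of these data known. They comprise 11 laminin chains, 18 integrin alpha chains and 8 integrin beta chains, out of 32285 listed features. Both groups are cultures of the mouse embryonic stem cell line D3 put through a cardiomyocyte differentiation protocol and taken on day 6. The control is wild type, and the other group carries a knockout of Zbtb16, which encodes a zinc finger transcription factor. The labels do not say whether the knockout is 1 clone, and they name no other allele or agent. Each group is 1 droplet single-cell RNA library, so differences between the groups have no replicate check and were described by size without a test.

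Laminins are the trimeric proteins, each of an alpha, a beta and a gamma chain, that polymerise into the basement membrane. Integrins are the paired alpha and beta receptors that bind laminins, collagens, fibronectin and other matrix proteins and link them to actin. The beta 1 chain pairs with most alpha chains, among them alpha 3, alpha 6 and alpha 7, which bind laminins. Alpha 1, alpha 2, alpha 10 and alpha 11 bind mainly collagens, while alpha 5, alpha 8 and the alpha v chain bind proteins that carry the RGD tripeptide. In the embryo the first basement membranes hold laminins with the alpha 1 or alpha 5 chain, and vessel walls are rich in alpha 4.

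RefSeq promoter windows, each from 250 bases before to 50 bases after a start site, were found for 23 of the 37 genes, as 26 windows on GRCm38.p6. Windows for 4 genes are shown because the results turn on them, and they were chosen after their values were seen. Lamb1 and Itgb1 were higher in the knockout library, Lama5 lay within the 1.5-fold used below, and Itga9 was lower. Capitals mark matches, on either strand, to the GC box, spelled GGGCGG. The core of the TATA box, spelled TATAAA, and the binding core of GATA factors, spelled GATAA, were searched and marked in the same way. No motif contains another.
Lamb1, chr12:31265043-31265342, plus strand: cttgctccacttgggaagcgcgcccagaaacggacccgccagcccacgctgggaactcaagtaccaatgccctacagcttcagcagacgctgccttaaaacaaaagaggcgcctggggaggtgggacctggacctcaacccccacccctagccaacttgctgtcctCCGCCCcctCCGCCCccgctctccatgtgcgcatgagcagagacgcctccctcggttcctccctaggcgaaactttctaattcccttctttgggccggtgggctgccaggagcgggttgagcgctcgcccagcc
Itgb1, chr8:128685404-128685703, plus strand: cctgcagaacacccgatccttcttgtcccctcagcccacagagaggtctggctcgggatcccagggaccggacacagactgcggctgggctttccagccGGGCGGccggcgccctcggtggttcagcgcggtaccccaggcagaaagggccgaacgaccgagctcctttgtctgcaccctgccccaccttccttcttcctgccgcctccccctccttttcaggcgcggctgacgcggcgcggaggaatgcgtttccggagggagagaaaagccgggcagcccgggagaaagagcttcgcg
Lama5, chr2:180225810-180226109, minus strand: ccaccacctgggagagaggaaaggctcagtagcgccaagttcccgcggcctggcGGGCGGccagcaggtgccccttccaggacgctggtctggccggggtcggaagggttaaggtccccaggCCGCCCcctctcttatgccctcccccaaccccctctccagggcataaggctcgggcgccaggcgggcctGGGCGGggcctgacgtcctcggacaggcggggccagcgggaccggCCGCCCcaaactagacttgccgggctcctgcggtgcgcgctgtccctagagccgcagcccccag
Itga9, chr9:118711442-118711741, plus strand: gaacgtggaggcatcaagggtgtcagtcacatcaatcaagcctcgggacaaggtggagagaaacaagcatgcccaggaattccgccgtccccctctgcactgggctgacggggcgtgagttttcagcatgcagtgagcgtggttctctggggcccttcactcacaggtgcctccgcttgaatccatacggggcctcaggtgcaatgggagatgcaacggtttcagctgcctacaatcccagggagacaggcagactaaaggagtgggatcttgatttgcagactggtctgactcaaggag
The Lamb1 window holds 2 GC boxes, the Itgb1 window 1 and the Lama5 window 4, and the Itga9 window holds none of the searched letters. GC content was 63.7% for Lamb1, 67.3% for Itgb1, 72.7% for Lama5 and 56.7% for Itga9, against a median of 52.7% over all 32851 mouse windows. GC boxes were found in 12 of the 26 member windows, and in 35.7% of all windows. The TATA letters were found in 0 of the 26, against 13.6% of all windows, and the GATA letters in 2 of the 26, against 25.4%. A match is a description of the letters only.

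The control library held 308465930 unique molecular identifiers (UMIs, each marking 1 captured RNA molecule), and the knockout library 357324373. Barcodes with at least 15000 UMIs and at most 10% mitochondrial UMIs were kept as cells, which left 6354 control cells with a median of 37324 UMIs and 9449 knockout cells with a median of 30513. The libraries share 16 cell barcodes. Levels are given as CPM, which divides the UMIs of a gene by all UMIs of the cells summed and multiplies by 1000000. Zbtb16 itself stood at 22.2 CPM over all control cells (95% interval 21.7 to 22.8) and at 0.994 CPM over all knockout cells. It stood at 10.4 CPM (116 UMIs) in the endoderm-like knockout cells, so its RNA was not at 0 in the library labelled knockout. All intervals given are exact (Poisson for levels, Clopper-Pearson for shares), and they cover counting error only.

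Cell states were set by gates, which are counts of marker genes seen in each cell after thinning to 15000 UMIs. The endothelial, endoderm, pluripotent, haematopoietic and cardiomyocyte gates, called lineage gates, came first. A cell that passed none of these took the first mesoderm gate it passed, in the order posterior mesoderm, Upk3b, Isl1, mesenchymal. Endothelial-like cells numbered 293 in the control and 578 in the knockout, endoderm-like cells 107 and 199, and mesenchymal-like cells 840 and 4159. The mesenchymal-like cells are thus only those that passed no earlier gate. They numbered 979 and 4713 with 1 marker more per gate, and 301 and 1588 with 1 marker fewer. Check markers outside each gate were read next. In both libraries 7 of 8 endothelial and 6 of 7 endoderm markers reached at least 20 CPM in their own state. Of the 7 mesenchymal markers 5 (control) and 6 (knockout) did so. This mesenchymal check cannot back the name mesenchymal-like, since other states passed it too. Among control states 6 reached 20 CPM in cardiomyocyte-like cells, and 5 in Upk3b gate, Isl1 gate and ungated cells. Only 3 did so in endothelial-like and 2 in endoderm-like control cells. Their summed level was 567 CPM for mesenchymal-like and 822 CPM for cardiomyocyte-like control cells. Cardiomyocyte-like cells reached 50 only in the control (1619 cells, against 33). Pluripotent-like and posterior mesoderm-like cells reached 50 only in the knockout, with 222 and 380 cells against 30 and 11. Of the posterior mesoderm-like check markers, 2 of 6 reached 20 CPM. Cells that passed the gate on Upk3b, Wt1 and related genes (850 and 2007) or the gate on Isl1, Mef2c and related genes (1788 and 592) are called by those genes only. In the control the 10 leading genes of the Upk3b gate cells held 4 mesenchymal markers and 1 of their own. Those of the Isl1 gate cells held more cardiomyocyte markers than their own in both libraries. The haematopoietic gate passed 0 of 6354 control cells, which allows a share of up to 0.0472% (3 counts of the total, in place of an interval), and 32 knockout cells. Cells that passed no gate numbered 796 and 1242, and 20 and 5 cells passed more than 1 lineage gate and were left out of the states.

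A core of 3 chains was present in every state. Here a chain counts as present in a state of 50 cells or more at 20 CPM or more and above 10% of its level in the free RNA of nearly empty barcodes. Lamb1 and Lamc1, the beta 1 and gamma 1 chains shared by most laminins of early tissue, and Itgb1, the common integrin partner, met this in all 7 control and all 8 knockout states. The rule does not set a chain apart from free RNA. In endothelial-like control cells Lamb1 (30.6 CPM) and Lamc1 (33.6 CPM) met it below their free RNA levels of 39.5 and 66.1 CPM. The Upk3b gate, Isl1 gate, mesenchymal-like and ungated control cells had the same chains present, adding Itga1, Itga5, Itga9 and Itgb5 to the core. Further chains, alpha and beta, were present in some of the other states. CPM is not divided by transcript length, so levels below are compared only for the same gene across states or libraries. Where a pair of values is given for both libraries, the control comes first.

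**Figure D1:**
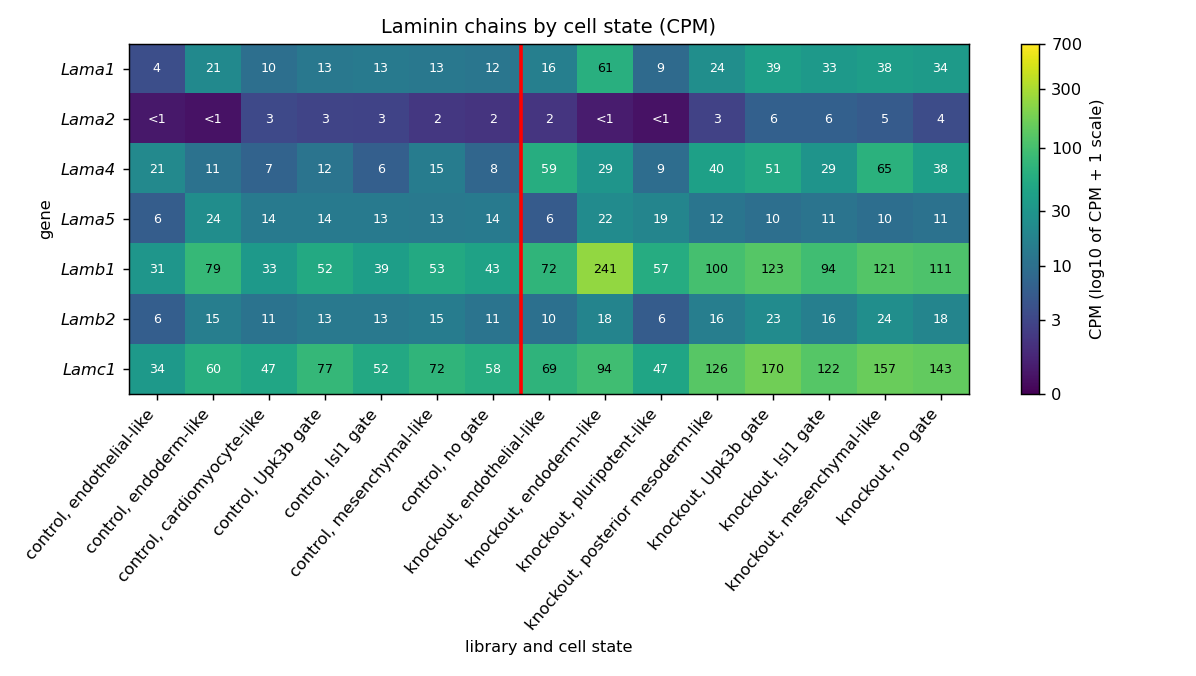
Level of each laminin chain gene that reached 5 CPM in a state (rows) in each cell state of at least 50 cells (columns, control left of the red line and knockout right of it), in CPM with the colour on a log10 scale of CPM + 1. Lamb1 and Lamc1 stand at 30.6 CPM or more in every column, and the other chains differ by state.

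Among the laminin alpha chains, Lama1 (alpha 1, found in embryonic and epithelial basement membranes) was highest in endoderm-like cells of both libraries. Its level there was 21.4 CPM among control cells (18.3 to 24.9) and 61.4 CPM among knockout cells (56.8 to 66.1). The lowest Lama1 levels were 3.87 CPM in endothelial-like control cells and 8.70 CPM in pluripotent-like knockout cells. The endoderm-like level lay above that of the next state beyond counting error in each library.

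Lama4 (alpha 4, a chain of vessel and mesenchymal basement membranes) followed another order. In the control it was highest in endothelial-like cells, at 20.7 CPM, ahead of mesenchymal-like cells at 14.7 CPM, and it stood at 6.97 CPM in cardiomyocyte-like cells. In the knockout mesenchymal-like cells led at 64.9 CPM, with endothelial-like cells at 58.5 CPM (55.6 to 61.5). Posterior mesoderm-like cells stood at 40.2 CPM, endoderm-like cells at 29.1 CPM and pluripotent-like cells at 9.44 CPM. The leading state of Lama4 thus differed between the libraries, while that of Lama1 did not.

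Lama5 (alpha 5, the widespread chain of epithelia) was highest in endoderm-like cells, with 23.7 CPM among control and 22.4 CPM among knockout cells, where pluripotent-like cells at 18.8 CPM overlapped them within counting error. Endothelial-like cells were lowest, at 5.94 and 5.58 CPM. Lama2, the alpha chain of muscle basement membrane, was below 5 CPM in all control states and reached 6.48 CPM in the Isl1 gate cells of the knockout. Lama3, the alpha chain of epidermal laminin, stayed at or below 2.41 CPM in every state of 50 cells, with that value in pluripotent-like cells.

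Of the beta and gamma chains, Lamb1 was highest in endoderm-like cells of both libraries, at 79.1 CPM (73.0 to 85.6) and 241 CPM (231 to 250). The next states were the mesenchymal-like control cells at 53.1 CPM and the Upk3b gate cells of the knockout at 123 CPM. Lamc1 was highest in the Upk3b gate cells, with 76.6 CPM (control) and 170 CPM (knockout). In the control mesenchymal-like cells at 72.1 CPM overlapped them, and endothelial-like cells were lowest at 33.6 CPM. Lamb2, a beta chain of vessel and muscle laminins, ranged over states from 6.00 to 15.4 CPM in the control and from 5.65 to 24.4 CPM in the knockout. Lamb3, a beta chain of epithelial laminin, and Lamc3 stayed at or below 1.02 CPM in every state of 50 cells.

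**Figure D2:**
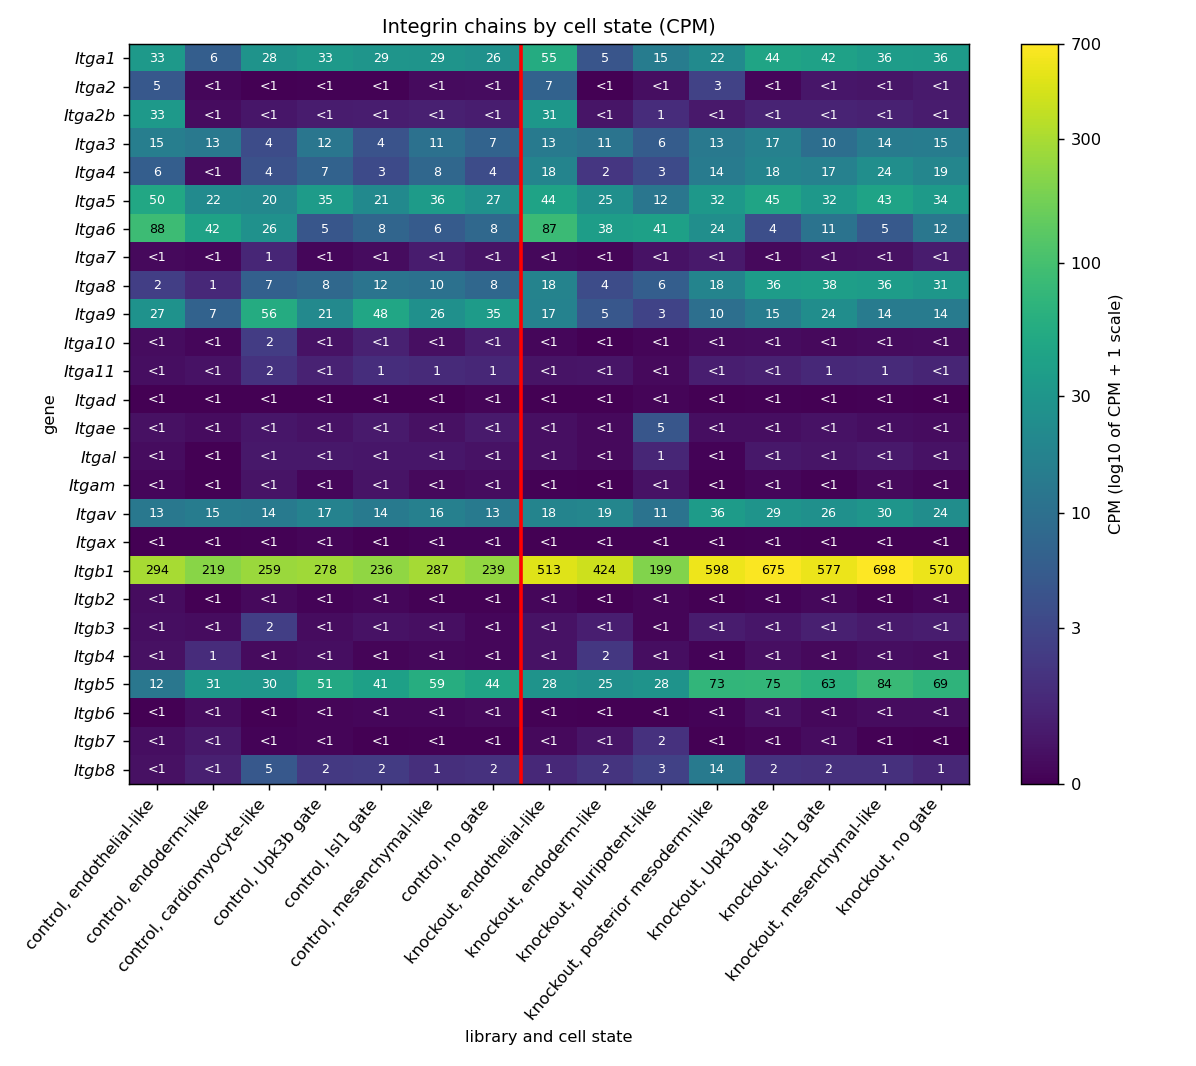
Level of each integrin chain gene (rows) in each cell state of at least 50 cells (columns, control left of the red line and knockout right of it), in CPM with the colour on a log10 scale of CPM + 1. Itga2b stands above 30 CPM in the endothelial-like columns alone, and Itga6 is highest there.

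Of the laminin-binding integrin chains, Itga6 (alpha 6, which pairs with beta 1 or beta 4) was highest in the endothelial-like cells with the gates used. Its level there was 87.6 CPM for control cells (83.2 to 92.1) and 87.0 CPM for knockout cells (83.4 to 90.6). Endoderm-like cells came next in the control, at 42.1 CPM, and pluripotent-like cells at 40.9 CPM and endoderm-like cells at 37.6 CPM followed in the knockout. The knockout order changed with gates read on unthinned counts, as given below. Cardiomyocyte-like control cells stood at 26.4 CPM, while the Upk3b gate cells were lowest, at 4.74 and 3.81 CPM. Itga3 (alpha 3, the other main laminin receptor) ranged from 3.64 CPM in cardiomyocyte-like to 15.4 CPM in endothelial-like control cells. Itga7, the laminin receptor of muscle, was at or below 1.03 CPM in every state of 50 cells, the highest being cardiomyocyte-like control cells. Itgb4, the beta 4 partner of alpha 6 in epithelia, reached 1.89 CPM in endoderm-like knockout cells.

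A second chain was also highest in endothelial-like cells among the states of 50 cells or more. Itga2b, the platelet alpha IIb chain that also marks early blood and endothelial precursors, was measured there at 33.4 CPM (30.7 to 36.2, control) and 31.2 CPM (29.1 to 33.4, knockout). No other state of 50 cells exceeded 1.30 CPM. The 32 knockout cells of the haematopoietic gate were too few for this comparison, so the chain is not shown to be particular to endothelial-like cells. Its beta partner Itgb3 was at 0.289 and 0.382 CPM in the same cells and reached 2.39 CPM at most, in cardiomyocyte-like cells. Itga2, a collagen receptor, was also highest in endothelial-like cells, at 5.14 and 6.92 CPM.

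Itga9 (alpha 9, which binds tenascin and other ligands) was highest in cardiomyocyte-like control cells, at 55.9 CPM (54.1 to 57.7). The Isl1 gate cells of the control followed at 47.7 CPM, and endoderm-like cells were lowest at 6.79 CPM. In the knockout the Isl1 gate cells led at 24.1 CPM and pluripotent-like cells were lowest at 2.78 CPM. In the free RNA of the control Itga9 stood at 44.7 CPM, against 38.1 CPM over all control cells. Other chains had like levels in free RNA, among them Lamc1, at 66.1 and 142 CPM, against 56.8 and 142 CPM over all cells. Itgb1 stood at 254 and 507 CPM in free RNA, against 256 and 623 CPM over all cells.

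Among the collagen and RGD receptors, Itga1 was highest in endothelial-like cells, at 33.5 CPM among control cells, where the Upk3b gate cells overlapped them, and at 54.7 CPM among knockout cells. Endoderm-like cells were lowest in Itga1, at 6.15 and 4.67 CPM. Itga5, the fibronectin receptor chain, ranged from 20.4 to 49.9 CPM in the control and from 12.1 to 44.6 CPM in the knockout. Itgb5, a partner of the alpha v chain, was highest in mesenchymal-like cells of both libraries, at 58.5 and 84.4 CPM. Itga8, which binds nephronectin and fibronectin, was highest in the Isl1 gate cells, at 11.6 and 37.9 CPM, where mesenchymal-like cells overlapped them in both libraries. Itga4, which binds fibronectin and VCAM1, was lowest in endoderm-like cells of both libraries, at 0.256 and 1.80 CPM.

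Posterior mesoderm-like knockout cells were highest in 2 alpha v receptor chains. Itgav stood at 35.9 CPM there (32.8 to 39.2), ahead of mesenchymal-like cells at 29.8 CPM. Itgb8 stood at 13.6 CPM (11.7 to 15.6), against 2.59 CPM or less in the other knockout states of 50 cells. Pluripotent-like knockout cells had 3 integrin chains present, Itga6, Itgb1 and Itgb5, and had the highest level of Itgae, at 4.72 CPM (51 UMIs). The leukocyte chains Itgal, Itgam, Itgax, Itgad and Itgb2 stayed at or below 1.02 CPM in every state of 50 cells.

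Across all cells, most measured chains were higher in the knockout library. Of the 37 genes, 16 reached 5 CPM in either library, and these are called measured. A gene is called higher or lower where the ratio of CPM + 1, knockout over control, is at least 1.5-fold, which is 0.58 on the log2 scale. By this measure of size 5 of 6 laminin chains were higher and 0 lower, with a median log2 ratio of 1.36. Of the 10 integrin chains 6 were higher and 1 lower, with a median of 0.80. That median was 0.05 with no filter on low values, and 0.53 without cells that held over 10 UMIs of the cardiomyocyte gate genes. Over all 10289 genes that reached 5 CPM 12.7% were higher and 6.75% lower, with a median of 0.02.

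Lama4 showed the largest log2 ratio of the members, 2.32. Its level was 9.53 CPM over control cells (2789 UMIs) and 51.5 CPM over knockout cells (17667 UMIs). Lama1 stood at 11.9 and 34.9 CPM, a log2 ratio of 1.48. Lamb1 stood at 42.5 and 115 CPM, and Lamc1 at 56.8 and 142 CPM, with log2 ratios of 1.42 and 1.31. Lamb2 passed narrowly, at 12.2 and 20.4 CPM and a ratio of 0.70. Lama5 was the exception, at 13.4 and 10.4 CPM, a log2 ratio of -0.34.

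Among the receptors, Itgb1 stood at 256 and 623 CPM, a log2 ratio of 1.28. Itga4 stood at 4.78 and 19.5 CPM (1.83), and Itga8 at 8.37 and 31.2 CPM (1.78). Itga4 was measured through the knockout alone, so the filter left no lower call open to it. Smaller ratios belonged to Itgav, 14.6 and 26.9 CPM (0.84), to Itga3, 7.56 and 14.2 CPM (0.82), and to Itgb5, 40.8 and 70.1 CPM (0.77). Itga5 (0.51), Itga1 (0.38) and Itga6 (-0.15) lay within 1.5-fold. Itga9 was the 1 lower member, at 38.1 and 14.5 CPM, a log2 ratio of -1.33.

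The 21 other members were below 5 CPM in both libraries over all cells. Lama2, at 2.42 and 4.78 CPM, and Itga2b, at 2.62 and 3.38 CPM, had the highest levels among them in the knockout. Itgad had 4 and 9 UMIs, and Itgax 13 and 6.

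**Figure D3:**
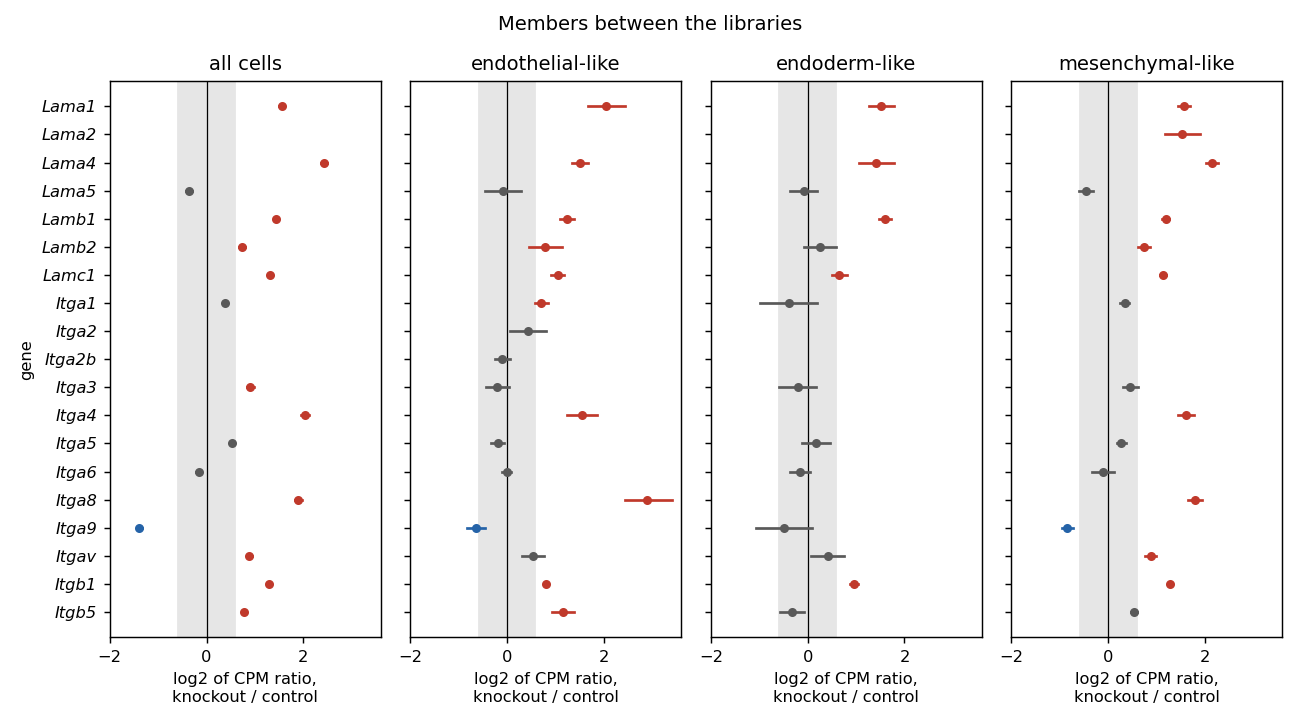
Log2 ratio of CPM, knockout over control, without the added 1 CPM, for each measured member (rows) in all cells and in the 3 compared states (panels). Lines are 95% intervals for counting error only, grey bands span 1.5-fold, and red and blue mark members called higher or lower with the added 1 CPM. Lama1, Lama4, Lamb1, Lamc1 and Itgb1 lie right of the band in all 4 panels, with the Lamc1 line reaching into it in endoderm-like cells, and Lama5 in none.

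Long transcripts were higher in the knockout library as a class, and laminin and integrin transcripts are long. Of the 16 measured members 12 were in the longest 25% of transcripts (at least 4750 bases), of which 9 were higher and 1 lower. In that class 28.1% of 2572 genes were higher and 4.51% lower, with a median log2 ratio of 0.31. After correction of every ratio for the trends on length and then GC content, 4 laminin chains were higher and 1 lower (median 1.10). Then 5 integrin chains were higher and 1 lower (median 0.61), against 8.64% higher and 6.38% lower over 10286 genes. The corrected log2 ratios were 2.06 for Lama4, 1.21 for Lamb1, 1.17 for Lama1, 1.17 for Itgb1 and 1.03 for Lamc1. Correction ended the calls of Lamb2 (0.56) and Itgav (0.48), and it took Lama5 (-0.61) past 1.5-fold lower. Itga9 stood at -1.61 after it.

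**Figure D4:**
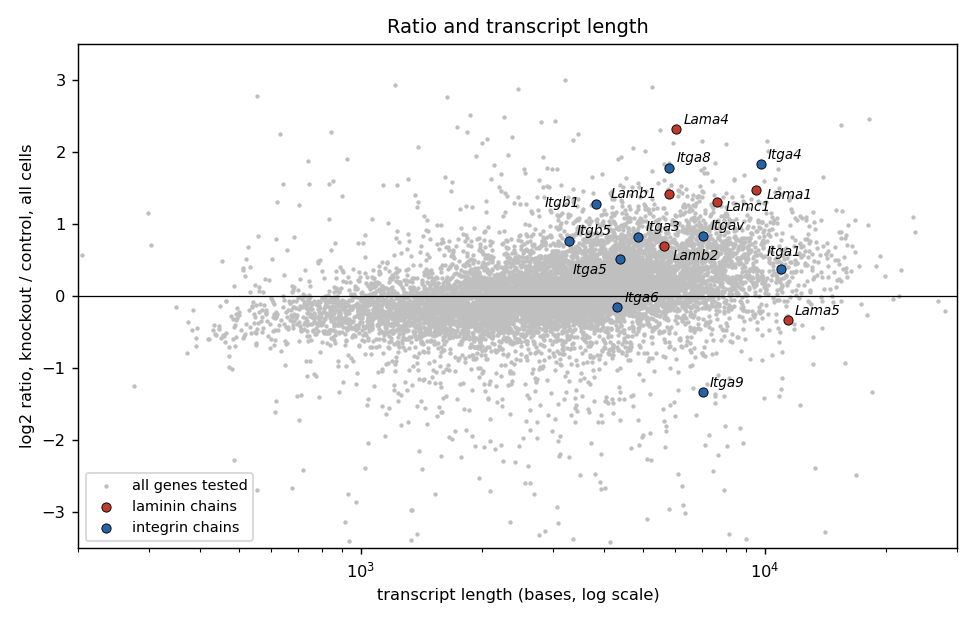
Log2 ratio of CPM + 1 in all cells, knockout over control, against transcript length in bases on a log axis, for all genes tested (grey), laminin chains (red) and integrin chains (blue). The cloud of all genes climbs with length. Among the measured members Lama4, Itga4 and Itga8 have the highest ratios and Itga9 the lowest. Ratios of all genes tested ran from -6.04 to 6.28.

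The makeup of the cells also differed between the libraries, as the cell numbers above show. The 10 genes of the cardiomyocyte gate summed to 2006 CPM over control and 92.4 CPM over knockout cells. Their part in the ratios over all cells was not tested as a cause, and ratios within a state are given next. Within states these sums were 255 and 30.4 CPM in endothelial-like cells, 136 and 63.5 CPM in endoderm-like cells, and 259 and 58.7 CPM in mesenchymal-like cells. Of 8 further cardiomyocyte markers, those at 20 CPM or more numbered 2 and 1 in endothelial-like, 2 and 1 in endoderm-like, and 4 and 1 in mesenchymal-like cells. Without cells that held more than 10 UMIs of these genes, a choice made after the data were seen, Itga3 no longer passed 1.5-fold over all cells (0.46).

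In mesenchymal-like cells the laminin chains were higher in the knockout, apart from Lama5. Of 7 measured laminin chains 6 were higher and 0 lower, and of 10 integrin chains 4 were higher and 1 lower, against 11.8% and 4.67% of 10055 genes. Lama4 stood at 14.7 and 64.9 CPM (log2 ratio 2.07), and Lama1 at 12.8 and 37.8 CPM (1.49). Lama2 stood at 1.91 and 5.49 CPM (1.16), on 75 UMIs in the control. It was measured through the knockout alone, so the filter left no lower call open to it. Lamb1 stood at 53.1 and 121 CPM (1.17), Lamc1 at 72.1 and 157 CPM (1.12) and Lamb2 at 14.6 and 24.4 CPM (0.70). Lama5 stood at 13.3 and 9.61 CPM (-0.43). The receptors called higher were Itga8, at 10.4 and 36.1 CPM (1.70), Itga4, at 8.01 and 24.5 CPM, Itgb1, at 287 and 698 CPM (1.28), and Itgav (0.84), whose call ended after the length correction (0.44). Itga9 was lower, at 25.9 and 14.4 CPM (-0.80). Cells with exactly the minimum number of markers were 298 of the 840 control and 875 of the 4159 knockout mesenchymal-like cells. The Lamb2 call here and over all cells ended under some settings, with lowest values of 0.45 and 0.56.

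In endothelial-like cells Lama1, Lama4, Lamb1, Lamb2 and Lamc1 were higher, while Itga6 and Itga2b lay within 1.5-fold. Of 6 measured laminin chains 5 were higher and 0 lower, and of 12 integrin chains 5 were higher and 1 lower, against 13.7% and 4.83% of 9909 genes. Lama4 stood at 20.7 and 58.5 CPM (log2 ratio 1.46), Lama1 at 3.87 and 15.9 CPM (1.80), Lamb1 at 30.6 and 72.3 CPM (1.21) and Lamc1 at 33.6 and 69.4 CPM (1.02). Free RNA was higher than these cells for Lama1 (11.2 and 29.6 CPM), Lamb1 (39.5 and 85.7 CPM) and Lamc1 (66.1 and 142 CPM). It was lower for Lama4 (8.98 and 37.1 CPM). Lama1 did not count as present in these cells in either library. The part of free RNA in these ratios was not tested as a cause. Itga6 (-0.01) and Itga2b (-0.10) were nearly level. Itga8 stood at 2.37 and 17.7 CPM (2.47), Itga4 at 6.17 and 18.0 CPM (1.41) and Itgb1 at 294 and 513 CPM (0.80). Lama1 and Itga8 were measured through the knockout alone, so the filter left no lower call open to them. Itgb5 (1.10), Itga1 (0.69) and Lamb2 (0.70) were the other chains called higher, and Itga9 (-0.62) was called lower. The Itga1 call ended after the length correction (0.18), and the Itga9 call ended with a prior of 5 CPM (-0.53) and under further settings, over a range of -0.92 to -0.41. The Lamb2 call ended after the length correction (0.56), with a prior of 5 CPM (0.48) and under further settings, over a range of 0.23 to 1.10.

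The endothelial gate took cells nearer its limit in the knockout, where 27.5% of its cells had exactly the minimum of markers, against 7.51% in the control. With 1 marker more per gate, 274 control and 421 knockout cells remained. The Itgb5 and Lamb2 calls then ended, both at a log2 ratio of 0.23, with Itgb5 at 9.86 and 11.7 CPM. Itga6 then differed by a log2 ratio of 0.17. With gates read on unthinned counts, which passed 410 and 1354 cells, Itga6 (-0.77) and Itga2b (-0.85) were past 1.5-fold lower. Knockout Itga6 was then at 33.5 CPM in endothelial-like cells, below endoderm-like (38.9 CPM) and pluripotent-like cells (34.4 CPM). In the control it stayed higher in endothelial-like (57.7 CPM) than in endoderm-like cells (42.4 CPM).

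In endoderm-like cells Lamb1, Lama1, Lama4, Lamc1 and Itgb1 were higher. Of 6 measured laminin chains 4 were higher and 0 lower. Of 8 integrin chains 1 was higher and 0 lower, with a median log2 ratio of -0.18, against 13.5% and 6.42% of 10174 genes. The share of integrin chains called higher was near that of all genes, and the count came to 2 or 4 under other settings. Lamb1 stood at 79.1 and 241 CPM (log2 ratio 1.59), Lama1 at 21.4 and 61.4 CPM (1.48), Lama4 at 10.9 and 29.1 CPM (1.34) and Lamc1 at 59.7 and 93.8 CPM (0.64). In free RNA Lama4 stood at 8.98 and 37.1 CPM and Lamc1 at 66.1 and 142 CPM, near or above these cells. Free RNA was lower than these cells for Lamb1 (39.5 and 85.7 CPM) and Lama1 (11.2 and 29.6 CPM). The part of free RNA in these ratios was not tested as a cause. Itgb1 was the 1 integrin chain called higher, at 219 and 424 CPM (0.95). Itga6 (-0.16), Itgb5 (-0.31) and Lama5 (-0.08) lay within 1.5-fold. The Lamc1 call ended after the length correction (0.43), and the Lama4 call ended among cells with at most 5% mitochondrial UMIs (0.56). The difference between states in these ratios was not tested.

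Lama4 made up a larger part of the laminin alpha RNA in the knockout library. Lama4 made up 25.4% of laminin alpha UMIs over all control cells and 50.5% over all knockout cells, while Lama5 made up 35.7% and 10.2%. Lama1 kept nearly its share, at 31.8% and 34.3%. In mesenchymal-like cells Lama4 made up 34.3% and 55.0%, and in endothelial-like cells, where its share was largest in both libraries, 63.6% and 70.6%. In endoderm-like cells Lama1 made up 37.4% and 53.6%, with Lama5 at 41.5% and 19.5%. Among knockout states Lama5 had its largest share in pluripotent-like cells, at 47.3%. Since transcripts of the 5 chains differ in length, the shares compare libraries and states rather than chains.

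**Figure D5:**
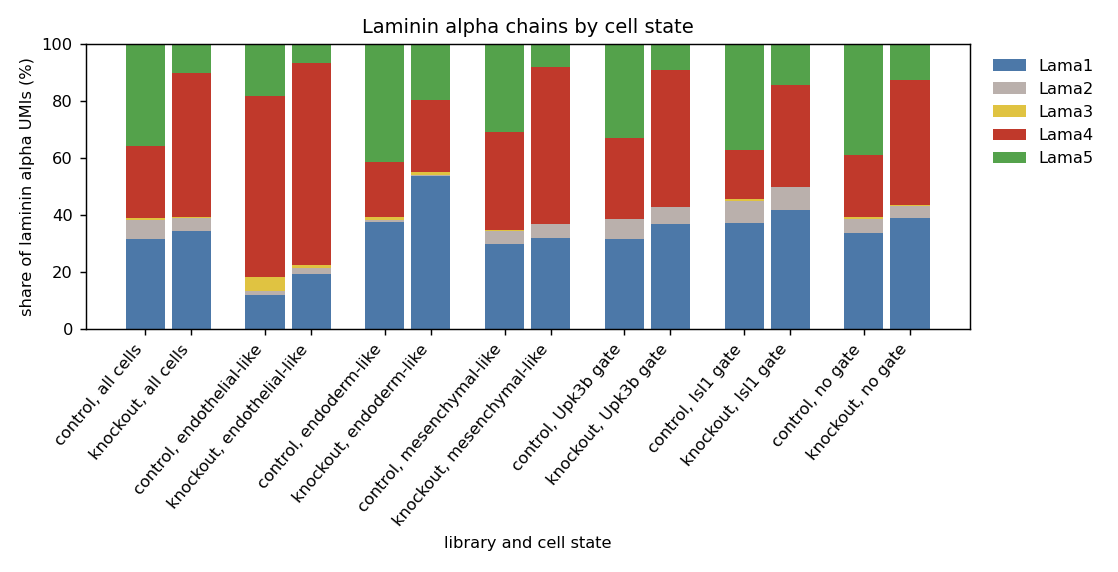
Share of laminin alpha UMIs (%) that each of the 5 alpha chain genes makes up, as stacked bars for all cells and for 6 cell groups in the control and knockout libraries. The Lama4 segment is larger in the knockout bar of every pair, and the Lama5 segment is smaller.

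Among integrin alpha chains the share of Itga9 was 24.8% over all control cells and 7.07% over all knockout cells. Itga8 made up 5.45% and 15.2%, and Itga4 3.11% and 9.50%. Itga1 (18.6% and 18.2%) and Itga5 (17.9% and 19.2%) differed little. The share of Itga6 among endothelial-like cells was 31.9% and 28.1%. Among endoderm-like cells it was 39.1% and 34.3%. Among control states Itga9 had its largest shares in cardiomyocyte-like cells, at 33.7%, and in the Isl1 gate cells, at 33.1%. Summed levels over all cells were 151 and 383 CPM for laminins, 154 and 206 CPM for integrin alpha chains, and 300.4 and 697 CPM for integrin beta chains.

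Cells with at least 1 UMI were counted after each cell was thinned to 15000 UMIs. Thinned, control and knockout cells with Itgb1 made up 96.9% and 99.6%, with Lamb1 43.2% and 76.1%, and with Lamc1 53.1% and 82.5%. Unthinned, Lamb1 was seen in 72.2% and 91.1%, at the median depths given above. Lama4 was seen in 12.2% and 43.0% thinned (28.3% and 61.3% unthinned), and Itga9 in 37.6% and 18.1% (60.7% and 33.0%). All 3 of Lama4, Lamb1 and Lamc1, which can form 1 trimer, were seen together in 3.38% and 29.6% of cells thinned, and in 20.3% and 55.1% unthinned. For Lama1 with Lamb1 and Lamc1, the chains of the first embryonic laminin, the thinned shares were 4.50% and 25.9%. For Lama5 with Lamb1 and Lamc1 they were 4.55% and 9.16%. Itga2b was seen in 31.1% and 28.0% of endothelial-like cells thinned (71.7% and 53.1% unthinned). In endoderm-like cells, which had almost none, it was seen in 0 of 107 and 2 of 199 cells thinned (1.87% and 2.51% unthinned). The median depths of endothelial-like cells were 50748 and 36196 UMIs, and those of endoderm-like cells 49428 and 45975.

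Partners and ligands from 4 further gene lists were read over all cells, against the same 12.7% higher and 6.75% lower of all genes. Within states these shares were 11.8% and 4.67% in mesenchymal-like, 13.7% and 4.83% in endothelial-like, and 13.5% and 6.42% in endoderm-like cells. After the length correction the shares over all cells were 8.64% and 6.38%. Within states 619 genes were then higher and 419 lower of 10055 in mesenchymal-like cells. The counts were 822 and 464 of 9909 in endothelial-like cells, and 1072 and 607 of 10174 in endoderm-like cells. Of 15 measured basement membrane partners 9 were higher and 1 lower, with a median log2 ratio of 0.67, or 6 and 3 after the length correction. Within states 8 were higher and 0 lower of 14 in mesenchymal-like cells, 6 and 1 of 14 in endothelial-like cells, and 7 and 1 of 17 in endoderm-like cells. The length correction gave 4 and 0, 3 and 1, and 6 and 4, in the same order. Over all cells, Smoc2, a matricellular calcium binder, stood at 92.7 and 267 CPM (1.51). Nid1 (nidogen, the link between laminin and collagen IV) stood at 27.5 and 78.2 CPM (1.47), Col4a2 at 34.4 and 70.5 CPM (1.02) and Sparc at 667 and 1063 CPM (0.67). Col18a1 (0.35) lay within 1.5-fold.

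Of 18 measured integrin ligands other than laminins 7 were higher and 2 lower, with a median of 0.41. Within states the counts were 5 higher and 1 lower of 18 in mesenchymal-like cells, and 7 and 4 of 17 in endothelial-like cells. In endoderm-like cells 4 were higher and 5 lower of 19, with a median of -0.17. After the length correction the counts were 4 and 3, 7 and 3, and 4 and 8, in the same order. Over all cells, Fn1 (fibronectin) stood at 362 and 940 CPM (1.37), Postn (periostin) at 19.2 and 160 CPM (3.00) and Col1a1 at 43.6 and 194 CPM (2.13). Col1a2 stood at 87.0 and 153 CPM (0.81), and Col3a1 (0.10) lay within 1.5-fold. Tnc (tenascin C, a ligand of the alpha 9 chain, named after its value was seen) stood at 47.7 and 10.6 CPM, a log2 ratio of -2.07.

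Receptors of laminin other than integrins and the adaptors inside the cell had smaller median ratios. Of 14 measured other laminin receptors and their modifying enzymes 2 were higher and 0 lower, with a median of 0.21. Within states 2 of 14 were higher in mesenchymal-like cells, 3 of 15 in endothelial-like cells and 3 of 15 in endoderm-like cells, and 0 were lower in each. With the length correction 1, 3 and 0 were higher. Over all cells the higher ones were Sdc2, a syndecan, at 13.4 and 31.5 CPM (1.17), and Utrn, utrophin, at 58.2 and 125 CPM (1.08). Dag1, dystroglycan, stood at 98.6 and 80.9 CPM (-0.28), Rpsa at 4216 and 3499 CPM (-0.27) and Pomt2 at 6.20 and 9.16 CPM (0.50). Of 27 measured adaptors 7 were higher and 1 lower, with a median of 0.27, or 4 and 1 after the length correction. Within states 6 adaptors were higher and 0 lower of 26 in mesenchymal-like cells, 4 and 0 of 26 in endothelial-like cells, and 3 and 1 of 27 in endoderm-like cells. After the length correction these counts were 1 and 0, 0 and 0, and 2 and 1. Before it, the shares higher in endothelial-like (15.4%) and endoderm-like cells (11.1%) were near those of all genes. Over all cells, Tns3, a tensin, stood at 17.1 and 36.1 CPM (1.04), and Ptk2b, a focal adhesion kinase relative, was the lower one, at 6.17 and 1.60 CPM (-1.46). Flna (0.45), Actn1 (0.27) and Cd81 (0.12) lay within 1.5-fold.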

How the data were processed

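Droplet single-cell RNA libraries of 1 control and 1 Zbtb16 knockout culture were read on a DNBSEQ instrument after an MGI DNBelab preparation, per the labels' protocols. Both deposited matrices are unnormalised UMI counts for each feature and barcode, written by Cell Ranger 4, per the file headers. The submitters' processing notes name Cell Ranger, R 4.1.1, GRCm39 and mm39. Members and lists were chosen with earlier results of these data known. UMIs were summed over the cells of a state and scaled to CPM. Ratios were taken of CPM + 1 for genes that reached 5 CPM in 1 library or both and called by size at 1.5-fold, without a test. No doublet caller was run, and cells that passed more than 1 lineage gate were left out of the states. Named members had at least 50 CPM in a state or passed 1.5-fold over all cells, and from each further list up to 3 genes were named by mean CPM and 2 by ratio. Lama2, Lama3, Lama5, Lamb3, Lamc3, Itga2, Itga2b, Itga5, Itga7, Itgae, Itgb3, Itgb4, Itgb8, the leukocyte chains and Tnc were named after their values were seen. Transcript length and GC content came from GENCODE M21 on GRCm38, and lowess trends used a span of 0.3 (statsmodels 0.14.6). Values of 1 member are not reported here. The ratio step was tested on simulated data. Python 3.11.15, numpy 2.4.6, scipy 1.17.1 and edgeR 4.0.16 (TMM scaling) were used. Alternatives covered the UMI, mitochondrial and CPM minimums, the prior, scaling, thinning, gates, candidate doublets, free RNA, and length with GC. Others, added after the data were seen, left out cells that passed 2 lineage gates or held over 10 cardiomyocyte gate UMIs.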

Additional observations from a re-analysis of the deposited data

How the results depend on the processing

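No paired analysis was possible because there is 1 library per group, and so no replicate could be left out. No ratio changed sign past 1.5-fold under any alternative run. Of 991 recomputed ratios of single members, 948 kept their side of 1.5-fold, 27 fell within it and 16 moved past it. The median of laminin chains in endoderm-like cells (0.99) was 0.23 with no filter on low values and 0.58 with free RNA subtracted, and that of basement membrane partners over all cells (0.67) came as low as 0.47. TMM scaling moved all ratios by at most 0.05. The length and GC correction gave 1 laminin chain lower over all cells and 1 in mesenchymal-like cells, where 0 had been (Lama5 in both). It also gave 2 integrin chains lower in endoderm-like cells instead of 0, 3 basement membrane partners lower instead of 1, and 4 adaptors higher instead of 7. Counting members from 20 CPM gave 3 laminin and 3 integrin chains higher in endothelial-like cells, where 5 each had been, and 0 adaptors lower instead of 1. The single lower integrin chain of endothelial-like cells, Itga9, fell to a count of 0 with a prior of 5 CPM, with thinned cells, with free RNA subtracted and without cells of over 10 cardiomyocyte gate UMIs. That count was 2 with 1 marker fewer per gate and 2 with gates on unthinned counts, and those gates each gave 1 lower integrin chain in endoderm-like cells instead of 0. With 1 marker fewer the pluripotent-like knockout cells had 9 chains present instead of 5. With no filter on low values 2 integrin chains were lower over all cells instead of 1, 4 were higher in endoderm-like cells instead of 1, and 2 basement membrane partners were lower instead of 1. A mitochondrial limit of 5% gave 2 integrin chains higher in endoderm-like cells and 2 basement membrane partners lower. Without cardiomyocyte-gated cells 0 adaptors and 1 other integrin ligand were lower, instead of 1 and 2. Without cells of over 10 cardiomyocyte gate UMIs, an alternative chosen after seeing the data, these were also 0 and 1, and 0 basement membrane partners were lower. Depth limits the rare chains: Itgad had 4 and 9 UMIs, and endoderm-like levels below 10 CPM rest on under 100 UMIs in the control.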
